A study of Mus musculus with 8 samples.

Results

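The genes described here are 38 genes of the integrated stress response and the unfolded protein response, chosen by name from the raw count table of 55291 genes in the lumbar spinal cord of SOD1G93A mice. They were kept as 3 lists: 20 genes of the ATF4 arm (Atf4 itself and 19 of its targets), 14 targets of XBP1 and ATF6, and 4 genes for the sensors and their factor (Ern1, Eif2ak3, Atf6 and Xbp1). All 38 passed the filter on low counts, so none was lost before testing. The mice were male, carried the human SOD1G93A transgene on a C57BL/6J background, and had 1 Cx3cr1 allele replaced by a tamoxifen-inducible Cre. In 4 of them both Ager alleles were floxed (Ager fl/fl Cx3cr1Cre/+, called Ager-deleted here: mice E1776, E5231, E5248, E5568), and in the other 4 Ager was wild-type (Ager+/+ Cx3cr1Cre/+, the Cre-expressing controls: mice E5386, E5642, E6578, E6732). All 8 were given tamoxifen, in 5 daily injections of 0.2 µg at 12 weeks by the labels, which also give an age of 120 days at sacrifice; the methods of the study place the injections slightly later and describe the tissue as end-stage. Ager encodes RAGE, a receptor for advanced glycation end products, and the comparison asks what its loss from microglia leaves different in the cord. Since the controls also carry Cre, 1 disrupted Cx3cr1 allele and the transgene, the data hold no wild-type reference for either stress response.

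The integrated stress response starts when kinases, among them PERK (Eif2ak3), phosphorylate the translation factor eIF2α. General translation then slows while the mRNA of the transcription factor ATF4 is translated more, and ATF4 raises genes of amino acid supply, redox balance and, through CHOP (Ddit3), cell death. The unfolded protein response of the endoplasmic reticulum (ER) adds IRE1α (Ern1), which splices Xbp1 mRNA into the form that encodes an active factor, and ATF6, which is cleaved into one. XBP1 and ATF6 raise ER chaperones, disulfide isomerases and the machinery that removes misfolded proteins. Misfolded SOD1 in motor neurons is a known trigger of ER stress in this model. Gene counts do not read splicing of Xbp1, cleavage of ATF6 or phosphorylation, so what follows concerns mRNA levels.

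Each mouse had between 31148047 and 40324897 counts on genes, at which 3 counts are worth 0.0744 to 0.0963 CPM (the count of a gene relative to the TMM-scaled library size); that floor takes in counting error alone. Ager itself averaged 1.19 ± 0.287 CPM in Ager-deleted mice and 2.08 ± 0.382 CPM in controls (SD, n = 4 each). Its log2 fold change was −0.81, with an adjusted exact test p of 0.252. The genotypes did not overlap, but the Ager-deleted mouse E5231 (1.51 CPM) lay barely below the control E5386 (1.53 CPM). The RNA is from whole cord, whereas Cre acts in Cx3cr1-expressing cells. Here fewer cells of a type and less RNA per cell cannot be told apart. Markers of the cord were present in every mouse. The summed level of 10 microglial genes ranged from 1260 to 1910 CPM in Ager-deleted mice and from 1510 to 1740 CPM in controls. The ranges also overlapped for 6 astrocyte genes (11400 to 16600 and 13600 to 15200 CPM), 6 oligodendrocyte genes (20900 to 23200 and 20800 to 23300 CPM), 6 motor neuron genes (90.6 to 146 and 102 to 157 CPM) and 5 red blood cell genes (72.5 to 278 and 131 to 427 CPM). Markers of tissue outside the cord set 3 controls apart. A list of 10 skeletal muscle genes summed to 1040 CPM in E5386 and 1570 CPM in E5642 against 120 to 146 CPM in the other mice, 10 liver genes summed to 685 CPM in E6732 against 4.06 to 14.5 CPM, and 6 adipocyte genes summed to 141 CPM in E5386 against 0.889 to 6.95 CPM. No gene of these lists was at 0 in every mouse, although only 5 liver genes and 2 adipocyte genes passed the filter. Their part in the results below was not tested beyond leaving these controls out and, for muscle, a covariate, and those values are given beside the genes whose fold change changed sign with them.

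The medians of the 2 target lists lay on either side of that of all genes. Of the 14 XBP1/ATF6 targets, 11 had a log2 fold change (Ager-deleted over Cre control) above 0, with a median of 0.14 and a range of −0.22 to 0.33. Of the 20 genes of the ATF4 arm, 8 lay above 0 and 12 below, with a median of −0.047 and a range of −0.42 to 0.14. The 4 sensor genes had a median of 0.020, and the median of all 19470 genes tested was 0.0069, with 52.0% of them above 0. The chaperone gene Hspa5 and 4 more ER genes (Sdf2l1, Creld2, Pdia6 and Hyou1) were each between 1.14 and 1.26 times as high in Ager-deleted mice, while Dnajb9 was at 0.860 times the control level; all 6 had an unadjusted exact test p under 0.05 and none passed after adjustment.

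No member passed the threshold of 0.05 for the adjusted p by either test of edgeR. Over the 38 members the smallest adjusted p was 0.744 by exact test and 0.705 by quasi-likelihood. Of all 19470 genes, 14 passed by exact test (0.0719%) and 1 by quasi-likelihood (0.00514%). That number depended on how the spread was modelled: with common and tagwise dispersions in place of trended ones the exact test called 78 genes (0.401%), and DESeq2 called 25 (0.128%), in both cases with 0 of the 38 members among them. At an unadjusted p under 0.05 the exact test held 6 members, all of them XBP1/ATF6 targets (6 of 14), with 0 of 20 in the ATF4 arm and 0 of 4 among the sensors, where 4.26% of all genes lay under that threshold. By direction, 5 targets were higher in Ager-deleted mice, beside 1.20% of all genes, and 1 was lower, beside 3.06%. The quasi-likelihood test put 8 members under the same unadjusted threshold, adding Manf and Shmt2, beside 6.71% of all genes. The 4 Ager-deleted mice lay entirely above the 4 controls for 3 members, Sdf2l1, Creld2 and Pdia6, and for no member entirely below. Over all genes the mice did not overlap for 3.88%, with 1.97% higher and 1.91% lower in Ager-deleted mice. Members measured in the same 8 libraries are not independent of each other, and the counts are not those of independent genes.

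**Figure D1:**
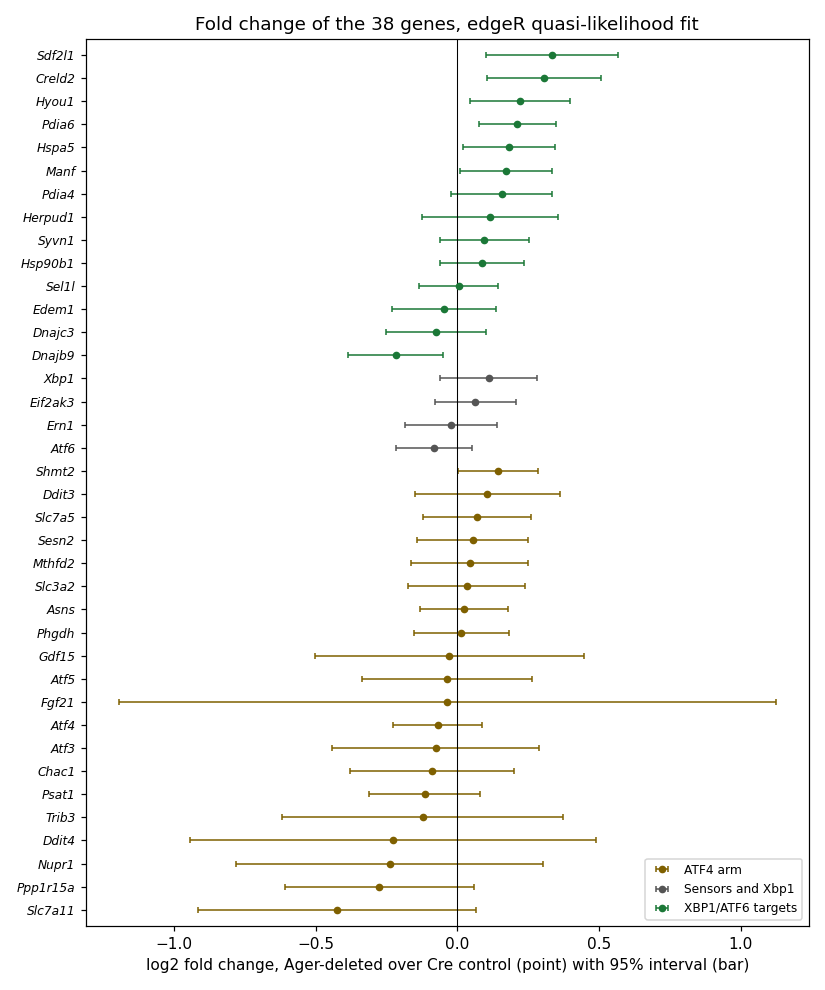
Log2 fold change of each of the 38 genes (x axis, Ager-deleted over Cre control, 4 mice each), with the point from the edgeR quasi-likelihood fit and the bar its 95% interval; genes are grouped by list and ordered by fold change. The intervals of 6 XBP1/ATF6 targets lie above 0 and that of Dnajb9 below it, in the ATF4 arm only that of Shmt2 lies off 0, and the interval of Fgf21, from −1.20 to 1.12, is the widest.

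Among the XBP1/ATF6 targets, the chaperones of the ER lumen came first. Hspa5 (chr2:34771970-34777547) encodes BiP, the Hsp70 of the ER that holds the stress sensors inactive until unfolded protein draws it away. It was found at 416, 369.8, 380.3 and 349 CPM in Ager-deleted and 329, 358, 320.5 and 326 CPM in control mice, each genotype listed here and below in the order of mice given above. The Ager-deleted mice averaged 379 ± 28.2 CPM and the controls 334 ± 17.0 CPM (SD, n = 4 each). In 3 of the 4 Ager-deleted mice the level lay above every control, and E5568 lay between the controls (log2 fold change 0.18, 95% interval 0.021 to 0.35, exact test p = 0.0486, adjusted p = 1; exact permutation p = 0.0571). Hyou1 (chr9:44379490-44392369), a large Hsp70-like partner of BiP that helps exchange its nucleotide, was at 115, 91.2, 114 and 101 CPM in Ager-deleted and 90.3, 91.8, 85.0 and 93.9 CPM in control mice. E5231 lay among the controls and the other three Ager-deleted mice above all of them (log2 fold change 0.22, 95% interval 0.046 to 0.40, exact test p = 0.0236, adjusted p = 1). Hsp90b1, the Hsp90 of the ER (GRP94), averaged 361 ± 24.5 against 339.7 ± 8.61 CPM (SD, n = 4 each), with an interval of the log2 fold change of −0.060 to 0.24.

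Co-chaperones of the J-domain family and their partners lay on both sides of 0. Sdf2l1 (chr16:17130138-17132383), an ER protein that works with J-domain co-chaperones to keep clients soluble, had the highest fold change of the 38 genes in the upward direction. Its level was 22.0, 18.6, 16.5 and 17.3 CPM in Ager-deleted and 15.6, 14.3, 13.3 and 15.7 CPM in control mice, so that every Ager-deleted mouse lay above every control (log2 fold change 0.33, 95% interval 0.10 to 0.57, exact test p = 0.0120, adjusted p = 0.793; exact permutation p = 0.0286, the smallest that 4 mice against 4 allow). E1776 was the highest of the 8 mice, and without it the log2 fold change was 0.24. Dnajb9 (chr12:44205559-44210326) encodes ERdj4, which directs clients to degradation and returns BiP to IRE1α, and it was the 1 target with an unadjusted exact test p under 0.05 that was lower in Ager-deleted mice. It was found at 39.5, 43.2, 47.0 and 44.4 CPM in Ager-deleted and 45.7, 54.2, 52.9 and 49.5 CPM in control mice. Of the Ager-deleted mice 3 lay below every control, and E5248 lay above the lowest control, E5386 (log2 fold change −0.22, 95% interval −0.39 to −0.049, exact test p = 0.0291, adjusted p = 1; exact permutation p = 0.0571). Dnajc3, the co-chaperone and PERK inhibitor p58IPK, averaged 131 ± 11.4 against 138 ± 11.2 CPM (SD, n = 4 each), a log2 fold change of −0.074 with an interval of −0.25 to 0.10.

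The 3 genes for disulfide bond formation all had fold changes above 0, and for 2 of them the mice did not overlap. Creld2 (chr15:88819646-88826683), a secreted ER stress gene with isomerase-like activity, was at 19.7, 19.0, 18.8 and 18.0 CPM in Ager-deleted and 16.2, 16.0, 12.7 and 16.1 CPM in control mice. The genotypes did not overlap (log2 fold change 0.30, 95% interval 0.10 to 0.51, exact test p = 0.0118, adjusted p = 0.788; exact permutation p = 0.0286, again the smallest possible). The control E6578 lay far below the other controls. Without it the log2 fold change was 0.23, and the unadjusted exact test p over all single omissions stayed between 0.0161 and 0.0457. Pdia6 (chr12:17266545-17284770), a disulfide isomerase that also binds IRE1α, was at 120.5, 118, 114 and 102 CPM in Ager-deleted and 97.6, 98.4, 95.7 and 101 CPM in control mice. The lowest Ager-deleted mouse, E5568, exceeded the highest control, E6732, by a narrow margin (log2 fold change 0.21, 95% interval 0.078 to 0.35, exact test p = 0.0103, adjusted p = 0.744; exact permutation p = 0.0286). When counts were scaled by library size alone, the mice overlapped for Pdia6. Part of an exon of Pdia6 lies opposite an exon of Atp6v1c2, and the strand setting of the counting is not given in the sources used here. Pdia4, a further isomerase, averaged 81.5 ± 8.76 against 73.1 ± 3.84 CPM (SD, n = 4 each), with 2 of the 4 Ager-deleted mice above all controls and an interval of −0.022 to 0.34.

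Manf (chr9:106838312-106891979), a secreted neurotrophic protein that binds BiP, was found at 41.4, 40.5, 34.3 and 38.2 CPM in Ager-deleted and 34.7, 36.5, 32.6 and 33.2 CPM in control mice. Every Ager-deleted mouse but E5248 lay above all controls (log2 fold change 0.17, 95% interval 0.010 to 0.33, exact test p = 0.0796, adjusted p = 1; unadjusted quasi-likelihood p = 0.0392). Its exons overlap those of Dcaf1 on the other strand. The genes of ER-associated degradation had smaller differences. Herpud1, which organises the degradation complex in the ER membrane, averaged 78.8 ± 11.4 against 72.8 ± 7.67 CPM with overlapping mice (SD, n = 4 each). Syvn1, the ubiquitin ligase HRD1, averaged 50.1 ± 3.45 against 46.9 ± 3.14 CPM, and its adaptor Sel1l averaged 221 ± 14.6 against 219.9 ± 6.33 CPM (SD, n = 4 each). Edem1, which extracts misfolded glycoproteins, averaged 60.2 ± 7.14 against 62.2 ± 1.46 CPM. The intervals of the log2 fold change were −0.12 to 0.36 for Herpud1, −0.063 to 0.25 for Syvn1, −0.14 to 0.14 for Sel1l and −0.23 to 0.14 for Edem1, so these data do not tell apart changes within those bounds.

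**Figure D2:**
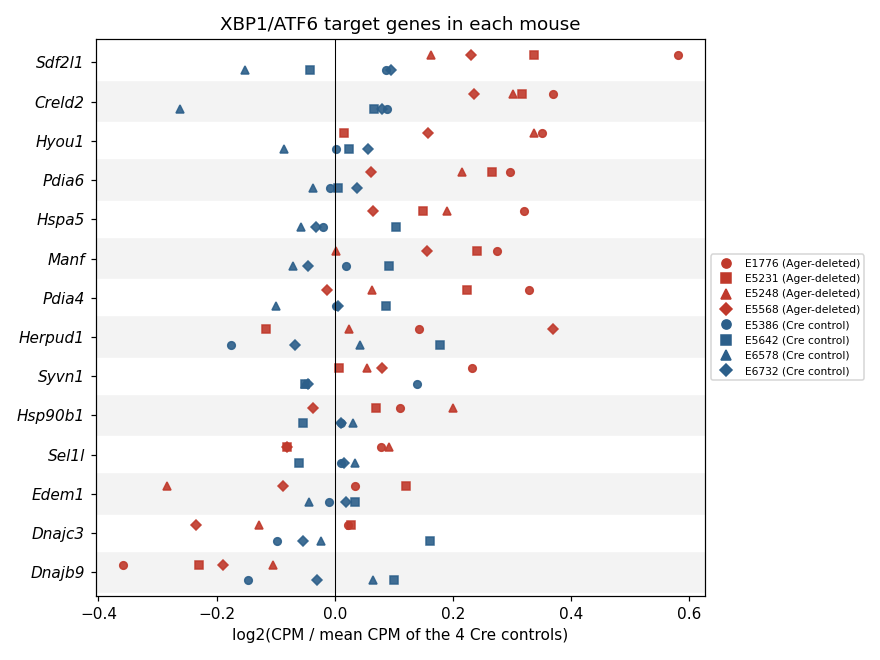
Level of each of the 14 XBP1/ATF6 targets in each mouse, as log2 of its CPM over the mean CPM of the 4 Cre controls (x axis), with genes ordered by fold change; red marks Ager-deleted mice, blue marks controls, and each symbol is 1 mouse. For Sdf2l1, Creld2 and Pdia6 all red symbols lie to the right of all blue ones, and for Dnajb9 the red symbols lie on the left with E5248 inside the range of the controls.

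Averaged over the 14 targets as log2(CPM + 1), the Ager-deleted mice stood at 6.46, 6.35, 6.34 and 6.31 and the controls at 6.25, 6.31, 6.21 and 6.26. The lowest Ager-deleted mouse, E5568 (6.310), and the highest control, E5642 (6.306), were almost level, and the genotype means of 6.36 ± 0.063 and 6.26 ± 0.038 (SD, n = 4 each) differed by 0.11. Individual mice contributed unequally. E1776 was the highest of the 8 mice for 8 of the 14 targets and E6578 the lowest for 7. Without E1776 the median log2 fold change of the targets was 0.10 and 10 of the 14 lay above 0. Members with an unadjusted exact test p under 0.05 were then 2 (Creld2 and Pdia6) in place of 6, beside 3.41% of all genes. Without E6578 that count was 3, beside 4.19% of all genes. With the muscle-marker controls E5386 and E5642 both left out the median was 0.17 and 10 targets lay above 0, and with the muscle score as a covariate the median was 0.17. Without E6732, the control with liver transcripts, it was 0.13 with 11 targets above 0.

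**Figure D3:**
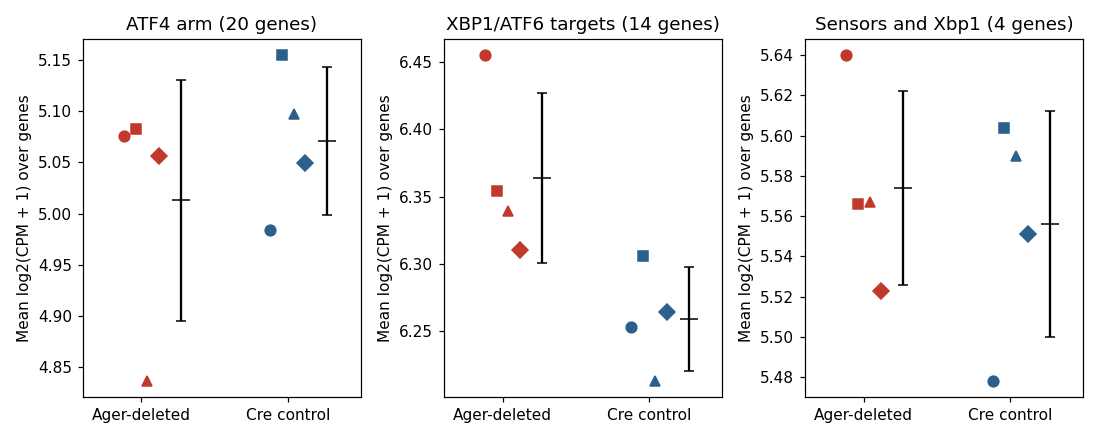
Mean log2(CPM + 1) over the genes of each list in each mouse (y axis, symbols as 1 mouse each, red for Ager-deleted and blue for Cre control), with the mean and SD of each genotype in black; the y axes differ between panels and do not start at 0. For the XBP1/ATF6 targets the 4 Ager-deleted mice lie at or above 6.31 and the controls at or below 6.306, whereas for the other lists the genotypes overlap and E5248 (4.84) is the lowest mouse of the ATF4 arm.

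The promoters of these targets are shown because XBP1 and ATF6 are known to act through short elements near the start of transcription, above all the ER stress response element ERSE (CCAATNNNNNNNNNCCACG). Windows of 250 bases before to 50 after each start (RefSeq, GRCm38.p6, 32851 windows over all genes) were searched on both strands for ERSE, for ERSE-II (ATTGGNCCACG), for the core of the unfolded protein response element (UPRE, TGACGTG) and for the core of the C/EBP-ATF response element bound by ATF4 (CARE, TGATGCAA). ERSE was found in 0.119% of all windows and in 6 of the 12 targets with a window (Hspa5, Hsp90b1, Dnajc3, Creld2, Pdia6 and Syvn1). It was found in 0 of the 19 matched genes of the ATF4 arm and 0 of the 3 matched sensors. ERSE-II, in 0.0365% of windows, was found in Herpud1, and the UPRE core, in 2.01%, in Hspa5. The 4 targets with the highest fold changes were split, in that Creld2 and Pdia6 hold an ERSE, Sdf2l1 holds none of the 4 motifs in its window, and Hyou1 has no entry; Manf has none either. Of the ERSE genes, Dnajc3 had a log2 fold change of −0.074 and Syvn1 of 0.10. In the 250 bases before the start given here, 5′ to 3′ on the strand of the gene, capitals mark the fixed letters of a motif match.
Hspa5 (chr2:34771840-34772089, plus strand): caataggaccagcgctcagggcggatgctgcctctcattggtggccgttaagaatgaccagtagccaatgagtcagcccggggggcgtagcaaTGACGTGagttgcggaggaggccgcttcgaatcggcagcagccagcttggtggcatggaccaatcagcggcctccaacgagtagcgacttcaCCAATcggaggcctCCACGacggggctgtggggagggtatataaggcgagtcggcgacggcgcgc
Creld2 (chr15:88819396-88819645, plus strand): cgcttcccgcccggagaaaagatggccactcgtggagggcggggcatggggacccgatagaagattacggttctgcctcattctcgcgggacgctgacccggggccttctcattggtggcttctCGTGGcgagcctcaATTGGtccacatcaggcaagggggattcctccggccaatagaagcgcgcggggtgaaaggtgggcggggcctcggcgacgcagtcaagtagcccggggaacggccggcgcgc
Pdia6 (chr12:17266339-17266588, plus strand): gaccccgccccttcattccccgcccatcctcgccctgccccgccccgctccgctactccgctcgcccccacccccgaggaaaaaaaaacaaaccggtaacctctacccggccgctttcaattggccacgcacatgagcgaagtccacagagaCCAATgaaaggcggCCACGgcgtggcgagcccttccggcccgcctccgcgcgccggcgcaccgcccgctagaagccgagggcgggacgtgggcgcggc
Sdf2l1 (chr16:17132384-17132633, minus strand): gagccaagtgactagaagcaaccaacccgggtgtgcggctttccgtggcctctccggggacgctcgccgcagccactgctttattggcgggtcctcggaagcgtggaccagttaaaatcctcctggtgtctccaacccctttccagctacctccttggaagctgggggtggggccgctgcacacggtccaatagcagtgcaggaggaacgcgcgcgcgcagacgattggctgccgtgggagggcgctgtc
Dnajb9 (chr12:44210069-44210318, minus strand): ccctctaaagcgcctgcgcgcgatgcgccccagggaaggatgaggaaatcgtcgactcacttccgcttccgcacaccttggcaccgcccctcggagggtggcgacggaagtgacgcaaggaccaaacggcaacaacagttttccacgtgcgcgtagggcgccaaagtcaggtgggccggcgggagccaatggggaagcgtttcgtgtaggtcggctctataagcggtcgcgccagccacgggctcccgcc
The capitals in Hspa5 mark a UPRE core and then an ERSE, those in Pdia6 an ERSE, and those in Creld2 an ERSE that lies on the other strand and so reads as CGTGG and then ATTGG. Sdf2l1 and Dnajb9, with fold changes of opposite sign, hold no capitals. A match describes letters in a window and does not show that a factor binds there. Variants of the fixed letters were not searched, so a window without a match may still hold such an element.

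For the sensors and Xbp1 the mice overlapped between genotypes and every interval included 0. Ern1 (chr11:106394650-106487852), which encodes IRE1α, was at 27.7, 24.0, 24.3 and 22.6 CPM in Ager-deleted and 24.8, 25.3, 26.1 and 24.0 CPM in control mice (log2 fold change −0.023, 95% interval −0.19 to 0.14, exact test p = 0.824, adjusted p = 1). Eif2ak3 (chr6:70844515-70905245), which encodes PERK, was at 37.8, 38.6, 34.8 and 36.6 CPM in Ager-deleted and 32.6, 34.7, 37.5 and 36.5 CPM in control mice (log2 fold change 0.063, 95% interval −0.080 to 0.21, exact test p = 0.493, adjusted p = 1). For both, mice of the 2 genotypes were interleaved, and an antisense gene model lies across part of an exon of Eif2ak3. Atf6 (chr1:170704674-170867771) was at 69.8, 65.9, 69.0 and 63.4 CPM in Ager-deleted and 66.9, 69.9, 76.0 and 70.9 CPM in control mice, with E5231 and E5568 below every control (log2 fold change −0.081, 95% interval −0.22 to 0.052, exact test p = 0.342, adjusted p = 1). Xbp1 (chr11:5520659-5525893), whose mRNA is itself a target of ATF6, was at 77.6, 74.9, 78.7 and 77.3 CPM in Ager-deleted and 66.2, 83.0, 65.9 and 70.6 CPM in control mice. The controls spread more widely than the Ager-deleted mice and enclosed them, with E5642 the highest of all 8 and E6578 the lowest (log2 fold change 0.11, 95% interval −0.059 to 0.28, exact test p = 0.256, adjusted p = 1). Without E5642 the exact test p of Xbp1 was 0.0350 before adjustment. Without E5386 and E5642 together Eif2ak3 stood at −0.010 and Atf6 at −0.14 on the log2 scale.

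In the ATF4 arm, the transcription factors overlapped between genotypes. Atf4 (chr15:80255184-80257541) was found at 132, 138, 116 and 133 CPM in Ager-deleted and 132, 147, 138 and 128 CPM in control mice. E5248 was the lowest mouse and E5642 the highest (log2 fold change −0.069, 95% interval −0.23 to 0.088, exact test p = 0.446, adjusted p = 1). ATF4 is controlled mainly through its translation, which these counts do not read. Ddit3 (chr10:127290774-127296288), which encodes the pro-apoptotic factor CHOP, was at 41.4, 50.9, 32.9 and 40.9 CPM in Ager-deleted and 41.2, 40.2, 35.5 and 37.5 CPM in control mice, with Ager-deleted mice at both ends of the range (log2 fold change 0.11, 95% interval −0.15 to 0.36, exact test p = 0.428, adjusted p = 1). A second gene model of the same symbol and Mars share bases with its exons. Atf3 (chr1:191170296-191218039), a stress-induced factor that is also a marker of axonal injury in motor neurons, was at 39.3, 41.5, 24.2 and 29.9 CPM in Ager-deleted and 30.0, 42.3, 35.6 and 34.4 CPM in control mice (log2 fold change −0.077, 95% interval −0.44 to 0.29, exact test p = 0.665, adjusted p = 1). The log2 fold change of Atf3 turned to 0.052 without E5248 and to 0.0093 without E5642, a control with muscle transcripts. Atf5, the related factor tied to the mitochondrial stress response, averaged 52.6 ± 7.37 against 53.9 ± 9.26 CPM (SD, n = 4 each). Its log2 fold change of −0.036 turned to 0.062 without E6732, the control with liver transcripts, and to 0.057 without E5248.

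Of the 5 regulators that limit or modify the response, 4 had a log2 fold change below 0, as 9348 of all 19470 genes did, and none an unadjusted exact test p under 0.05. For 2 of the 4, Trib3 and Ddit4, the sign rested on 1 control. Ppp1r15a (chr7:45522916-45526268) encodes GADD34, the phosphatase subunit that removes phosphate from eIF2α and so ends the response. It was at 20.7, 27.1, 16.4 and 20.5 CPM in Ager-deleted and 22.6, 28.8, 29.1 and 22.1 CPM in control mice. Of the 4 Ager-deleted mice 3 lay below every control, and E5231 lay among the controls (log2 fold change −0.28, 95% interval −0.61 to 0.057, exact test p = 0.0983, adjusted p = 1). Without E5231 the unadjusted exact test p was 0.00803 and the log2 fold change −0.41, while adjustment over all genes left no call. Nupr1 (chr7:126623249-126630861), a small stress-induced chromatin protein, was at 44.1, 55.6, 19.7 and 36.3 CPM in Ager-deleted and 48.2, 49.7, 46.1 and 39.9 CPM in control mice, with Ager-deleted mice both above and below the controls (log2 fold change −0.24, 95% interval −0.78 to 0.30, exact test p = 0.345, adjusted p = 1). Its value in E5248 was the lowest by far, and without that mouse the log2 fold change was −0.019. Trib3, a pseudokinase that restrains ATF4 and CHOP, was at 4.01, 4.74, 5.14 and 4.55 CPM in Ager-deleted and 5.03, 3.80, 3.58 and 7.59 CPM in control mice, with controls at both ends. Its log2 fold change of −0.12 turned to 0.15 without E6732, the control with liver transcripts and the highest mouse. Sesn2 and Ddit4, which restrain mTORC1, averaged 27.5 ± 3.45 against 26.5 ± 0.119 CPM and 72.5 ± 21.8 against 85.1 ± 40.7 CPM (SD, n = 4 each), and Ddit4 varied most, with both its lowest and its highest mouse among the controls. Without E5642, a control with muscle transcripts, the log2 fold change of Ddit4 turned from −0.23 to 0.096.

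Amino acid supply is the best known output of ATF4. Slc7a11 (chr3:49892526-50443614), the cystine-glutamate exchanger xCT, which in the cord is known in microglia and astrocytes, had the lowest fold change of the 38 genes. It was at 14.8, 15.7, 25.0 and 17.4 CPM in Ager-deleted and 16.4, 21.6, 26.0 and 33.8 CPM in control mice. The genotypes overlapped, since E5248 lay high among the Ager-deleted mice and E5386 low among the controls (log2 fold change −0.42, 95% interval −0.92 to 0.067, exact test p = 0.0703, adjusted p = 1). Without E5386 and E5642 the log2 fold change was −0.72, over 1.5 times as large, with an exact test p of 0.000858 and an adjusted p of 0.157. With the muscle score as a covariate it was −0.68, with an unadjusted quasi-likelihood p of 0.0141. With all mice the unadjusted p was also under 0.05 in DESeq2, at 0.0468, and in the exact test with tagwise dispersions, at 0.0441, and no setting gave an adjusted p under 0.05. Over the single omissions the log2 fold change ranged from −0.61 without E5248 to −0.23 without E6732. The partners of the large neutral amino acid transporter, Slc7a5 and Slc3a2 (the second also pairs with xCT), averaged 104 ± 8.81 against 99.5 ± 10.2 CPM and 190.1 ± 23.2 against 186 ± 12.9 CPM (SD, n = 4 each). Chac1, which degrades glutathione, averaged 8.21 ± 0.955 against 8.75 ± 1.26 CPM.

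Among the biosynthetic enzymes, Shmt2 (chr10:127517123-127522444), the mitochondrial serine hydroxymethyltransferase of folate metabolism, had the highest fold change above 0 in the ATF4 arm, although several genes of the arm lay further below 0. It was at 40.7, 38.9, 35.4 and 37.0 CPM in Ager-deleted and 36.0, 32.7, 33.8 and 35.1 CPM in control mice. E5248 lay among the controls and the other three Ager-deleted mice above all of them (log2 fold change 0.14, 95% interval 0.0016 to 0.29, exact test p = 0.117, adjusted p = 1; unadjusted quasi-likelihood p = 0.0479). The next enzyme of that pathway, Mthfd2, averaged 29.8 ± 3.25 against 28.9 ± 2.61 CPM, and the serine synthesis genes Phgdh and Psat1 averaged 55.0 ± 4.14 against 54.5 ± 3.93 CPM and 211 ± 16.7 against 229 ± 23.9 CPM (SD, n = 4 each). Asns, asparagine synthetase, averaged 75.2 ± 4.74 against 73.9 ± 5.43 CPM (SD, n = 4 each). Enzymes of 1 route lay on either side of 0, with log2 fold changes of 0.14, 0.044, 0.014 and −0.12. The secreted stress hormones were low. Gdf15 averaged 2.49 ± 0.589 against 2.53 ± 0.507 CPM (SD, n = 4 each). Fgf21 averaged 0.298 ± 0.133 against 0.318 ± 0.196 CPM and rested on 3 to 17 counts per mouse, so that its interval of −1.20 to 1.12 was wider than that of any other member.

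**Figure D4:**
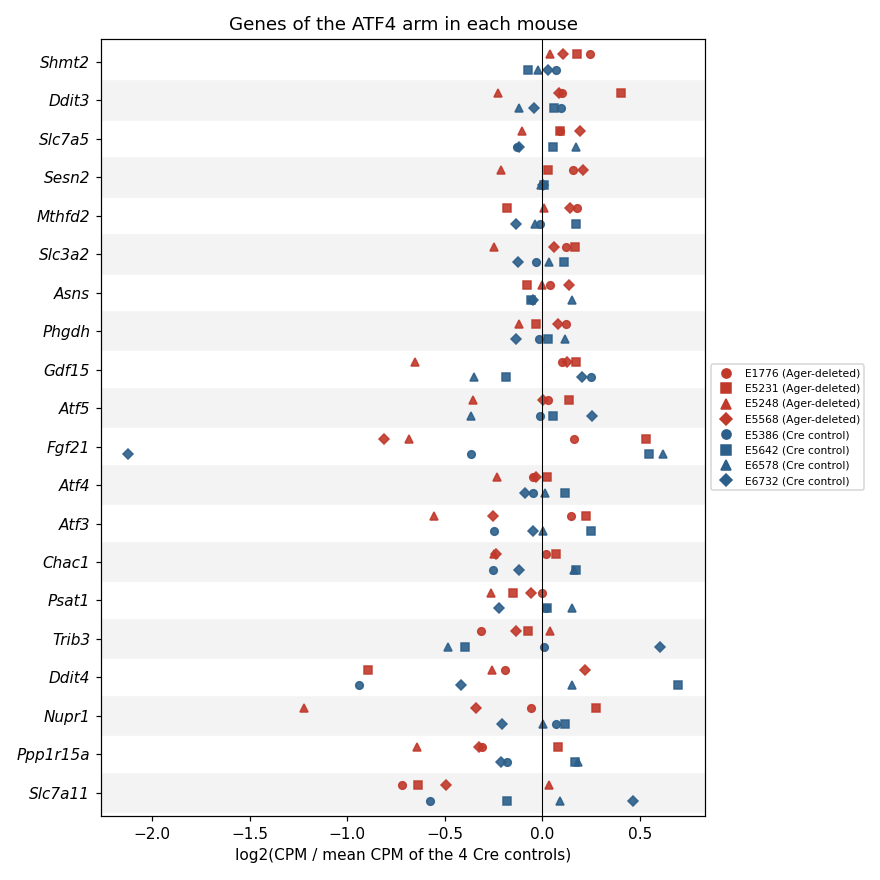
Level of each of the 20 genes of the ATF4 arm in each mouse, as log2 of its CPM over the mean CPM of the 4 Cre controls (x axis), with genes ordered by fold change; red marks Ager-deleted mice, blue marks controls, and each symbol is 1 mouse. The red triangle, E5248, lies at the low end for many genes, among them Nupr1, Atf3 and Ppp1r15a, and the genotypes overlap for all 20.

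E5248 was the lowest of the 8 mice for 9 of the 20 genes of the ATF4 arm and the highest for 0. Averaged over the arm as log2(CPM + 1), the Ager-deleted mice stood at 5.08, 5.08, 4.84 and 5.06 and the controls at 4.98, 5.16, 5.10 and 5.05. The means of 5.01 ± 0.12 and 5.07 ± 0.073 (SD, n = 4 each) differed by less than the spread between mice. The median log2 fold change of the arm turned from −0.047 to 0.054 without E5248, and to 0.0039 without the control E5642. E5248 was also the lowest mouse for the microglial marker level, at 6.34 against 6.49 to 7.02 in the other mice as mean log2(CPM + 1). The part of that in the ATF4 arm was not tested beyond correlations of the marker level with single genes, given under other observations. The CARE core was found in the windows of 5 of the 19 matched genes of this arm (Atf3, Chac1, Fgf21, Nupr1 and Slc7a11), beside 0.895% of all windows, and among the targets of XBP1 and ATF6 in Herpud1. Only the exact letters TGATGCAA were counted, on either strand, so genes without a match, such as Asns, may hold a variant of the element. The promoter of Slc7a11 is shown because it holds 2 copies, in capitals, the second of them on the other strand, where the letters read TTGCATCA.
Slc7a11 (chr3:50443614-50443863, minus strand): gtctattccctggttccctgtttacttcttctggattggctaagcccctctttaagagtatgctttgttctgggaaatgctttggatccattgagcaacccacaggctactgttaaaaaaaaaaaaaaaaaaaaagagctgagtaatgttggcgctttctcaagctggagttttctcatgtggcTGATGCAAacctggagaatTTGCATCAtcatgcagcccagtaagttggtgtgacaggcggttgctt
The 5 genes of the arm with this motif had log2 fold changes of −0.077 (Atf3), −0.090 (Chac1), −0.058 (Fgf21), −0.24 (Nupr1) and −0.42 (Slc7a11), and Herpud1 had 0.12. None had an unadjusted exact test p under 0.05. Without E5248 Atf3 turned to 0.052 and Nupr1 stood at −0.019. Fgf21 turned to 0.14 without E5386 and E5642.

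Levels between genes were compared per length, as CPM per kilobase of annotated exons averaged over the 8 mice. Hsp90b1 (86.9) and Hspa5 (84.2) were the most abundant members, followed by Atf4 (56.4), Slc3a2 (53.3) and Psat1 (51.7). The sensors were far lower, at 3.04 for Ern1, 6.00 for Eif2ak3 and 7.47 for Atf6, with Xbp1 at 22.9. Fgf21 (0.324), Gdf15 (1.36) and Slc7a11 (1.53) were the lowest. Members differed as much in how steady they were. The coefficient of variation of CPM over the 8 mice was 4.74% for Sel1l, 5.46% for Eif2ak3 and 5.46% for Atf6. It reached 39.3% for Ddit4, 30.9% for Slc7a11, 26.2% for Trib3, 25.7% for Nupr1 and 50.4% for the sparsely counted Fgf21. For 11 of the 38 members an annotated exon overlaps an exon of another gene model, which limits those counts where strand was not used.

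Other genes of the same pathways, listed by hand, were examined beside the members. None of 42 further genes of the integrated stress response (eIF2α kinases, eIF2 and eIF2B subunits, tRNA synthetases, transporters and further ATF4 targets) passed an adjusted p of 0.05, and their median log2 fold change was 0.015. Of these 2 of 42 had an unadjusted exact test p under 0.05, both with a lower mean in Ager-deleted mice. Beside 4.26% of all genes, the list stood near the background by that test. By quasi-likelihood 5 of 42 lay under the same unadjusted threshold, 2 higher and 3 lower in Ager-deleted mice, beside 6.71% of all genes. Cth, which makes cysteine from cystathionine, was at 3.25, 2.67, 2.31 and 3.05 CPM in Ager-deleted and 3.72, 4.57, 3.15 and 4.47 CPM in control mice (exact test p = 0.0135, adjusted p = 0.828). Slc1a5, a transporter of neutral amino acids, was at 10.5, 13.1, 10.4 and 17.9 CPM in Ager-deleted and 15.2, 21.5, 19.1 and 13.9 CPM in control mice (exact test p = 0.0446). The mice did not overlap for 3 of 42 (Eif2s1, Eif2b5 and Jdp2), beside 3.88% of all genes, and their values are given as a description. Eif2s1 encodes eIF2α itself and was the lower one in Ager-deleted mice, at 36.0, 38.9, 37.0 and 36.8 CPM in Ager-deleted and 40.8, 41.5, 39.6 and 40.9 CPM in control mice (log2 fold change −0.13, exact test p = 0.119). Eif2b5, a subunit of the exchange factor that phosphorylated eIF2α inhibits, was higher, at 58.4, 57.4, 55.6 and 60.1 CPM in Ager-deleted and 55.2, 53.7, 53.9 and 54.3 CPM in control mice (log2 fold change 0.092). Jdp2, a repressor of the AP-1 family, was also higher, with a log2 fold change of 0.21.

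None of 38 further genes of the unfolded protein response passed either, their median log2 fold change was −0.0024, and 0 had an unadjusted exact test p under 0.05. By quasi-likelihood 2 of the 38, Calr and Txndc11, lay under that threshold, both higher in Ager-deleted mice, beside 6.71% of all genes. Calr had a log2 fold change of 0.20 and an unadjusted quasi-likelihood p of 0.0466. The mice did not overlap for 2 of the 38, both higher in Ager-deleted mice, beside 3.88% of all genes in either direction and 1.97% in that one, which is again near the background. Dnajb11, the J-domain partner ERdj3 of BiP, was at 58.1, 57.5, 53.3 and 53.4 CPM in Ager-deleted and 49.4, 49.7, 53.1 and 51.7 CPM in control mice (log2 fold change 0.12, exact test p = 0.147). Txndc11, a thioredoxin-domain protein of the ER, was at 28.8, 30.7, 29.2 and 31.2 CPM in Ager-deleted and 25.8, 27.3, 28.1 and 25.1 CPM in control mice (log2 fold change 0.17, exact test p = 0.0575). Of this list 19 genes lay above 0 and 19 below.

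How members of an arm varied together from mouse to mouse was examined next. Correlations of log2(CPM + 1) over the 8 mice were computed between Atf4 and each of its 19 targets and between Hspa5 and each of the other 13 XBP1/ATF6 targets, with exact permutation p-values adjusted within each family. Atf4 correlated positively with 15 of 19 targets (median Pearson r 0.545), and 4 had an adjusted p under 0.05 by r and 0 by Spearman's rho. These were Ppp1r15a (r = 0.898, exact permutation p = 0.00221, adjusted p = 0.0419, rho = 0.714, exact permutation p = 0.0576), Nupr1 (r = 0.861, rho = 0.738), Slc3a2 (r = 0.848, rho = 0.786) and Atf3 (r = 0.833, rho = 0.786), the last 3 each with an adjusted exact permutation p of 0.0456 for r. Without the 2 mice farthest from the median of Atf4, E5248 and E5642, r was 0.774, 0.611, 0.725 and 0.422 in that order, and the median over the family fell to 0.394, so that much of the relation with Atf3 rested on those mice. Slc7a11 (r = −0.272), Trib3 (r = −0.525), Shmt2 (r = −0.194) and Asns (r = −0.027) went the other way.

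Hspa5 correlated positively with 11 of 13 targets (median r 0.590), 5 with an adjusted p under 0.05 by r and 0 by rho. The strongest were Pdia4 (r = 0.884, rho = 0.833) and Pdia6 (r = 0.882, rho = 0.857), each with an exact permutation p of 0.00275 for r and an adjusted p of 0.0179, while the adjusted exact permutation p for rho was 0.0666. Hyou1 (r = 0.810, rho = 0.714), Creld2 (r = 0.807, rho = 0.833) and Sdf2l1 (r = 0.806, rho = 0.738) followed, each with an adjusted exact permutation p of 0.0409 for r. Without E1776 and E6578, the mice farthest from the median of Hspa5, r was 0.640 for Pdia4, 0.774 for Pdia6, 0.553 for Hyou1, 0.758 for Creld2 and 0.354 for Sdf2l1. The coefficient of Dnajb9 was negative (r = −0.650, exact permutation p = 0.081, rho = −0.571, exact permutation p = 0.151). Since the genotype means of these genes differ, each coefficient includes the difference between genotypes. With the genotype mean subtracted from both genes, a step chosen after the data were seen, r fell to 0.531 for Sdf2l1, 0.499 for Creld2, 0.585 for Hyou1 and 0.695 for Pdia6, and Pdia4 stood at 0.833. The median of the Hspa5 family was then 0.494 and that of the Atf4 family 0.616, and Dnajb9 stood at −0.180. Coefficients within 1 genotype rest on 4 mice, too few to tell whether the pooled relation with Hspa5 holds there. They are given as a description. For Sdf2l1, Creld2, Hyou1, Pdia6 and Pdia4 in that order they were −0.0223, 0.479, 0.431, 0.235 and 0.881 among the controls. Among the Ager-deleted mice they were 0.768, 0.944, 0.645, 0.828 and 0.828. All these values share each mouse's library. Without E5386 and E5642 the median r was 0.627 for the Atf4 family and 0.751 for the Hspa5 family.

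**Figure D5:**
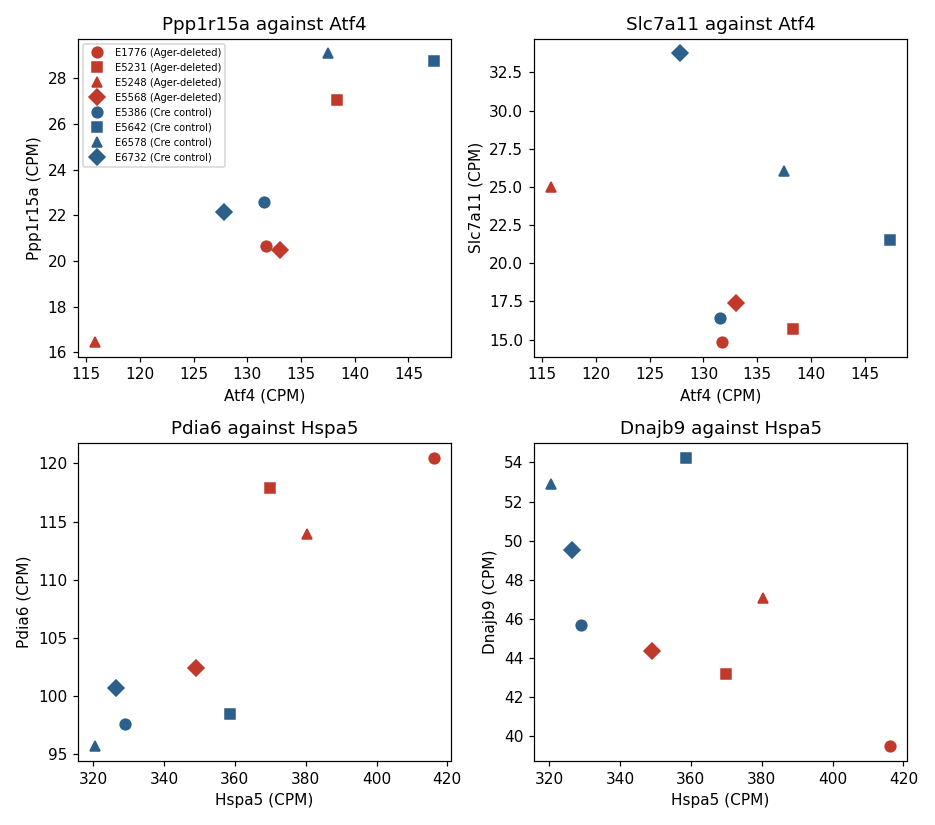
CPM of Ppp1r15a and Slc7a11 against Atf4 (upper panels) and of Pdia6 and Dnajb9 against Hspa5 (lower panels), with each symbol 1 mouse, red for Ager-deleted and blue for Cre control; axes are linear and do not start at 0. Ppp1r15a rises with Atf4 across both genotypes (r = 0.898 on the log2 scale), Slc7a11 has a negative coefficient (r = −0.272), Pdia6 rises with Hspa5 (r = 0.882) and the coefficient of Dnajb9 is negative (r = −0.650).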

How the data were processed

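RNA-seq of the lumbar spinal cord of 8 male SOD1G93A mice was used, 4 Ager-deleted and 4 Cre-expressing controls, grouped by the genotype in the labels and named by mouse. The library kit was stranded and selected polyadenylated RNA. The authors trimmed reads (Trimmomatic 0.36), aligned read pairs to mm10 with STAR 2.7.3a, assigned them to genes of GENCODE M25 by featureCounts (Subread 1.6.3), and deposited raw counts for 55291 genes; the tools are those of the submitters' processing notes and the study's methods. The authors also deposited log2 values, which are log2 CPM after TMM scaling (trimmed mean of M values); these were used only to check that filter and normalization could be recomputed (19470 genes, largest difference 4.78e-06). How reads mapping to several genes and the strand were handled is not given in the sources used here. Differences of preparation between mice other than genotype are not in the labels.

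From the counts, low genes were removed (filterByExpr, minimum 10 counts) and the rest were scaled by TMM and tested in edgeR 4.0.16 (R 4.3.3) with exactTest, the function named in the study's methods, which do not say how dispersions were estimated; here estimateDisp was used without a design matrix. The quasi-likelihood test of edgeR gave standard errors and 95% intervals. Benjamini-Hochberg adjustment was over all 19470 genes, with a threshold of 0.05. Single values were compared by exact two-sided permutation of mean log2(CPM + 1) over the 70 assignments of 8 mice to 4 and 4, where the smallest p is 0.0286. Lists were described by counts and medians, without a list test. The scripts were first run on counts drawn with known changes. Gene positions, exon lengths and overlaps are from GENCODE M21 (GRCm38, the assembly of mm10), matched by symbol. Alternatives were RLE, upper quartile and library size scaling, no filter and a minimum of 30 counts, DESeq2 1.42.0, limma-voom (limma 3.58.1), common and tagwise dispersions, a muscle score as covariate, a pseudocount of 0.1 CPM, each mouse left out, and E5386 and E5642 left out together.

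The members, lists and alternatives were chosen with earlier results of these data known. Named in full were the sensors and main factors, Hspa5, members with an unadjusted p under 0.05 in either edgeR test or with mice that did not overlap, and the 3 members with the highest and lowest fold changes; of the other pathway genes, those with an unadjusted exact test p under 0.05 or with mice that did not overlap. Each mouse is 1 sample, so the p-values judge a difference between genotypes, or a correlation, against the variation between these mice.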

Additional observations from a re-analysis of the deposited data

Results flagged for a closer look

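In 4 of 76 sets of 4 mice (38 genes in 2 genotypes) a single mouse stood apart from the other three by Dixon's 95% criterion, which by chance alone marks about 1 in 20 sets. Asns was at 82.1 CPM in the control E6578 against 71.0 to 71.5 CPM in the other controls. Creld2 was at 12.7 CPM in the same mouse against 16.0 to 16.2 CPM, and with E6578 left out it was still higher in Ager-deleted mice, as given above. Gdf15 was at 1.61 CPM in the Ager-deleted mouse E5248 against 2.72 to 2.86 CPM in the others of its genotype. Syvn1 was at 51.6 CPM in the control E5386 against 45.3 to 45.4 CPM, and this mouse is one of the 2 controls with muscle transcripts. Without those 2 controls the log2 fold change of Syvn1 was 0.137, against 0.095 with all mice. The part of muscle transcripts in Syvn1 was not tested beyond that omission and the muscle covariate.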

How the results depend on the processing

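No member was called under any of the alternatives in normalization, filter, test, dispersion, covariate or mice, and in all 38 further genes of the unfolded protein response and 42 of the integrated stress response the count of calls also stayed at 0. Of 721 recomputed fold changes of members, 677 kept their sign. The median log2 fold change of the XBP1/ATF6 targets ranged from 0.10 to 0.18 when single mice were left out and that of the sensors from −0.015 to 0.043, whereas that of the ATF4 arm ranged from −0.10 to 0.054, with values above 0 without E5248 (0.054) and without E5642 (0.0039). The number of members with an unadjusted p under 0.05 was 6 with all mice in the exact test, beside 4.26% of all genes. When single mice were left out it ranged from 2 without E1776 (3.41% of all genes) to 7 without E5568 (3.23%). It was 4 without E5386 and E5642 together (3.78%). With all mice it was lowest at 5, with RLE, no filter and a minimum of 30 counts, beside 4.28%, 3.14% and 4.5% of all genes. It was highest at 8, with quasi-likelihood, DESeq2 and the muscle covariate, beside 6.71%, 6.52% and 3.57%. Among all genes 14 were called in the exact test, 1 in limma-voom, 25 in DESeq2 and 78 once dispersions were common and tagwise, with 3 to 98 over the omissions of 1 mouse. The number of members whose mice did not overlap was 3 with all mice, beside 3.88% of all genes. When single mice were left out it ranged from 3 to 7. It was 3 without E1776 and 3 without E6578, beside 6.23% and 7.53% of all genes. It was 7 without E5248 and 7 without E5386, beside 11% and 8.66%. Fewer mice make separation easier: without E5386 and E5642 it was 11 (8 higher and 3 lower), where 12.8% of all genes were separated. Scaling by library size alone gave 5, beside 3.84% of all genes. That scaling also moved the median of all genes from 0.0069 to 0.032, and put Ern1 at 0.0024.

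The cause of the changes of sign was not tested. With the muscle score as a covariate Atf5 was at 0.0069, Asns at −0.035, Gdf15 at 0.018, Fgf21 at 0.086, Sel1l at −0.027 and Eif2ak3 at −0.0056 on the log2 scale. Without E5386 and E5642, Asns was at −0.036, Gdf15 at 0.0079, Fgf21 at 0.14, Sel1l at −0.027 and Eif2ak3 at −0.010. Fgf21 was at 0.17 in limma-voom and at 0.025 as a difference of log2 levels with a pseudocount of 0.1 CPM. Sel1l was at −0.00015 with RLE size factors and −0.00017 in DESeq2. When single mice were left out, the lowest and highest log2 fold changes of the genes that changed sign were −0.19 and 0.052 for Atf3, −0.14 and 0.062 for Atf5, −0.0062 and 0.20 for Ddit3, −0.25 and 0.15 for Trib3, −0.014 and 0.079 for Asns, −0.027 and 0.057 for Phgdh, −0.0037 and 0.11 for Mthfd2, −0.00064 and 0.13 for Sesn2, −0.45 and 0.10 for Ddit4, −0.013 and 0.12 for Slc3a2, −0.13 and 0.13 for Gdf15, −0.40 and 0.23 for Fgf21, −0.11 and 0.025 for Edem1, −0.025 and 0.032 for Sel1l and −0.083 and 0.017 for Ern1.

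With 4 mice per genotype the 95% interval of the log2 fold change included 0 for 30 of the 38 members, and Fgf21, at 3 to 17 counts per mouse, was limited by depth as well. No paired analysis was possible because the replicate numbers follow the order of the samples and pair no mice. Omitting all 3 controls with transcripts of other tissues would leave a single control and was not run.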

Other observations

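The microglial marker level (mean log2(CPM + 1) over 10 genes) was set beside each of the 38 members over the 8 mice, a comparison chosen after the data were seen. It was correlated positively with 27 of the 38, with a median Pearson r of 0.239, and 2 had an adjusted exact permutation p under 0.05 by r and 0 by Spearman's rho. Edem1, the lectin-like factor that delivers misfolded glycoproteins to degradation, had r = 0.952 (exact permutation p = 0.000248, adjusted p = 0.00942) and rho = 0.881 (exact permutation p = 0.00724, adjusted p = 0.204). Without E5248 and E5568, the mice farthest from the median of the marker level, its r was 0.924. Nupr1 had r = 0.894 (exact permutation p = 0.00117, adjusted p = 0.0221) and rho = 0.786 (exact permutation p = 0.0279, adjusted p = 0.354), and its r without the same mice was 0.688. Neither gene had an unadjusted exact test p under 0.05 between genotypes. For Edem1 the level was 63.7, 67.6, 51.0 and 58.5 CPM in the Ager-deleted mice and 61.7, 63.7, 60.3 and 63.0 CPM in the controls, so that the Ager-deleted mice held both ends of the range, as they did for the microglial marker level. All these values share each mouse's library.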
